A study of Oryctolagus cuniculus with 30 samples.

Results

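The genes described here belong to the retinoid pathway, through which cells turn vitamin A into retinoic acid and respond to it. They are STRA6, CRABP2, RDH10, ALDH1A1, ALDH1A2, RARB, RARG and RXRG. These symbols, with RXRA, were named in advance as 9 members, and 8 of them were found among the 31346 genes of the count tables. RXRA is not analysed here. The tissue was mucosa dissected from the vocal folds of 15 New Zealand white rabbits, 3 in each of 5 groups. RNA of the right and the left fold was sequenced separately, giving 30 libraries. The groups VFLP (man) and VFLP (au) received hydrogels made, by the series title, from vocal fold lamina propria. The group Col1 received collagen type I, and the group injury only received no injection. These 4 groups had the surface mucosa of both folds stripped, and the 3 injected groups were given 20 µL in each fold 7 days later. Tissue was taken 28 days after treatment. The day from which this runs in the injury only group was not established here, and no time is listed for the control animals, which were neither injured nor injected. What the words man and au stand for is not given in the labels.

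Retinol reaches cells bound to a carrier protein, is stored there as retinyl esters, and is oxidised first to retinaldehyde and then to retinoic acid. Retinoic acid binds nuclear receptors of the RAR family, which act on DNA as pairs with receptors of the RXR family. Stratified epithelia are known to change their differentiation with the supply of vitamin A, and stellate cells that store vitamin A are known in the maculae of human vocal folds.

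Levels are given as CPM (read counts relative to library size, scaled by TMM factors) per animal after both folds were summed. The libraries held 14.2 to 31.9 M gene reads. The samples differed in RNA of several cell types. The summed level of the 13 muscle markers found, of 18 listed, was 540 to 3605 CPM in VFLP (man), 5005 to 12110 in VFLP (au), 2350 to 7351 in Col1, 8018 to 18814 in injury only and 43015 to 98544 in control animals. Fibroblast markers (10 genes) summed to 387 to 1729 CPM in injured animals and 2471 to 3523 in control, endothelial markers (8 genes) averaged 110 to 324 CPM in the 4 injured groups and 567.7 in control, and secretory markers (7 genes) 4165 to 7608 and 1523 CPM. Markers of squamous epithelium were present in every animal, with a summed level of at least 11348 CPM for 10 genes, and no marker found on the muscle, squamous or stellate cell list was at 0 in any group. Batch and group were largely confounded: all 18 libraries of the injected groups and 1 of injury only came from batch D, and the other 5 of injury only and all 6 of control from batch C. In bulk tissue, fewer cells of a type cannot be told apart from less RNA per cell.

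Of the 8 genes, RXRG differed the most between groups and RARG and RARB were the receptors with higher levels after injection. In a test of any difference over the 5 groups, 4 of the 8 passed an adjusted p of 0.05 (edgeR's quasi-likelihood F test, Benjamini-Hochberg over 17770 genes), where 28.4% of all genes tested did. They were RXRG (adjusted p = 0.000887), RARG (0.0268), ALDH1A1 (0.0306) and RARB (0.0375). With a batch term, 1 of the 8 passed, and 1535 of the 17815 genes in that fit. STRA6, CRABP2, RDH10 and ALDH1A2 did not pass, with adjusted p between 0.0921 and 0.589.

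**Figure D1:**
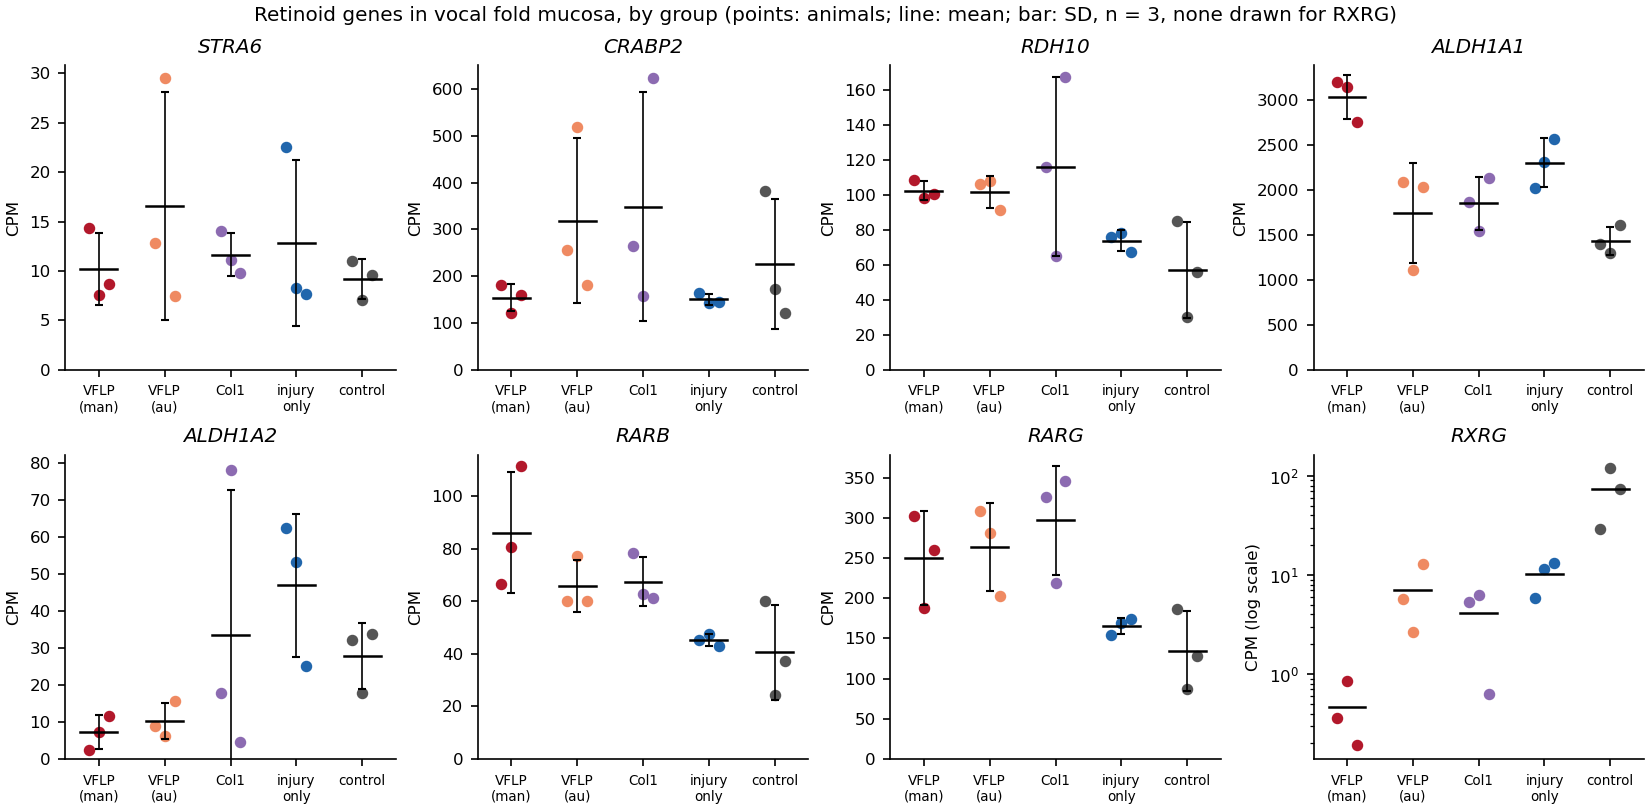
CPM of the 8 retinoid genes in each animal, by group, with a log axis for RXRG alone. Points are animals (both folds summed), lines are means and bars are SD over 3 animals; RXRG has no SD bar. The 3 VFLP (man) animals lie above all other animals for ALDH1A1 (2750.5 to 3204 CPM), and the control animals lie above all others for RXRG (28.9 to 119 CPM).

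STRA6, the membrane receptor that takes up retinol from its plasma carrier, was read at low levels and varied within groups. It averaged 10.2 ± 3.65 CPM in VFLP (man), 16.6 ± 11.5 in VFLP (au), 11.7 ± 2.14 in Col1, 12.8 ± 8.39 in injury only and 9.22 ± 2.02 in control (SD, n = 3 animals each, here and below). Every pair of groups overlapped, and STRA6 passed in no comparison. A share of 7.88% of its reads lay on the opposite strand, against at most 1.03% for the other 7 genes.

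CRABP2 encodes a cytosolic protein that carries retinoic acid to its nuclear receptors. Its level was 181, 122 and 160 CPM in the VFLP (man) animals, 256, 518 and 182 in VFLP (au), 265, 157 and 624 in Col1, 165, 142 and 144 in injury only, and 383, 172 and 122 in control. Single animals of VFLP (au), Col1 and control stood well above the rest of their groups, and CRABP2 passed in no comparison. The Col1 against injury only difference was 1.23 on the log2 scale (SE 0.53, adjusted p = 0.329), and the groups overlapped. VFLP (man) against Col1 gave a log2 fold change of -1.19 (SE 0.53, adjusted p = 0.473), also with overlap.

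RDH10 oxidises retinol to retinaldehyde, the first step of retinoic acid synthesis. It was read at 109, 98.5 and 100.3 CPM in VFLP (man), 106, 108 and 91.2 in VFLP (au), 116, 65.3 and 167 in Col1, 76.0, 78.5 and 67.4 in injury only, and 85.1, 30.4 and 55.7 in control. The 6 hydrogel animals all lay above the 6 animals without injection, while Col1 overlapped both of those groups. RDH10 rose in Col1 against control by a log2 fold change of 1.03 (SE 0.34, adjusted p = 0.0344). That call was lost without control animal 2 (log2 fold change 0.71, adjusted p = 0.128), control animal 3 (1.00, 0.0883), Col1 animal 1 (1.04, 0.0685) or Col1 animal 3 (0.66, 0.165). It was also lost in left folds alone (0.44, adjusted p = 0.407) and with only the 2 groups fitted (1.01, 0.153). VFLP (man) and VFLP (au) against control gave 0.84 each (SE 0.34 in both, adjusted p = 0.0687 and 0.0809), and both passed without control animal 1 (1.22 in both, adjusted p = 0.0139 and 0.0172) and in right folds alone (1.70, adjusted p = 0.0143, and 1.54, adjusted p = 0.0306). DESeq2 called VFLP (man) against control (0.80, adjusted p = 0.0491).

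ALDH1A1, a retinaldehyde dehydrogenase that makes retinoic acid, was higher in VFLP (man) than in control. It had 3204, 3139 and 2750.5 CPM in VFLP (man), 2091, 1105 and 2036 in VFLP (au), 1868, 1542 and 2136 in Col1, 2023, 2313 and 2566 in injury only, and 1396, 1295 and 1607 in control. All 3 VFLP (man) animals stood above the other 12. ALDH1A1 rose against control by a log2 fold change of 1.07 (SE 0.24, adjusted p = 0.00494), and this call held with each animal of either group left out. VFLP (man) against VFLP (au) gave 0.78 (SE 0.24, adjusted p = 0.298) and against Col1 0.70 (SE 0.24, adjusted p = 0.345), neither past the threshold by edgeR, while DESeq2 called the first (0.80, adjusted p = 0.0277). These 3 groups all lay in batch D. Injury only exceeded control in every animal, by 0.66 (SE 0.24, adjusted p = 0.0691), which did not pass by edgeR but did by DESeq2 (0.64, adjusted p = 0.0229) and in right folds alone (1.11, adjusted p = 0.02).

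ALDH1A2, the other retinaldehyde dehydrogenase among the 8 genes, spanned a 30.8-fold range over the 15 animals. It had 2.54, 7.40 and 11.7 CPM in VFLP (man), 8.83, 6.22 and 15.6 in VFLP (au), 17.9, 78.0 and 4.52 in Col1, 62.3, 53.1 and 25.2 in injury only, and 32.2, 17.7 and 33.7 in control. All 6 hydrogel animals lay below all 6 animals without injection, and Col1 held both the highest of the 15 animals and 1 of the lowest. None of the differences passed by edgeR: VFLP (man) against injury only gave a log2 fold change of -2.70 (SE 0.85, adjusted p = 0.138), VFLP (au) against injury only -2.18 (SE 0.84, adjusted p = 0.362), VFLP (man) against control -1.96 (SE 0.83, adjusted p = 0.0821) and VFLP (man) against Col1 -2.22 (SE 0.85, adjusted p = 0.388). DESeq2 called VFLP (man) against injury only (-2.71, adjusted p = 0.0123) and against control (-1.99, adjusted p = 0.0268). Folds of the same animal differed widely, for example 6.78 CPM in the right and 49.7 in the left fold of injury only animal 3.

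**Figure D2:**
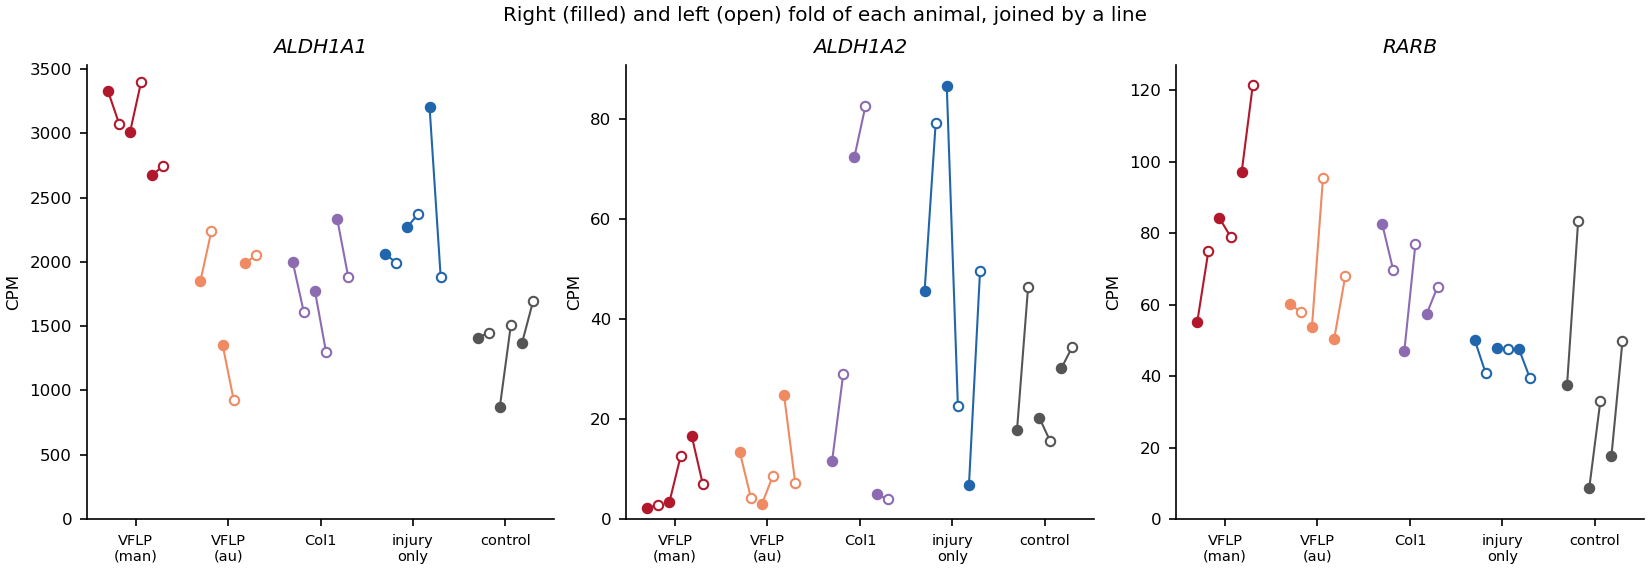
CPM of ALDH1A1, ALDH1A2 and RARB in the right (filled) and left (open) fold of each animal, joined by a line, with 3 animals in each of 5 groups. Values are scaled per library; the ALDH1A2 folds of injury only animal 3 lie at 6.78 and 49.7 CPM, and RARB is lower in the right fold of all 3 control animals.

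RARB encodes retinoic acid receptor beta, whose own gene is a known target of retinoic acid in many cell types. Its level was 66.5, 80.6 and 111 CPM in VFLP (man), 60.1, 77.3 and 60.03 in VFLP (au), 78.4, 62.7 and 61.4 in Col1, 45.4, 47.4 and 43.0 in injury only, and 60.2, 24.2 and 37.2 in control. Each of the 9 injected animals stood above the 3 injury only animals, which lay within 43.0 to 47.4 CPM. RARB rose in VFLP (man) against control by a log2 fold change of 1.08 (SE 0.27, adjusted p = 0.00856), and kept the call with each animal left out. RARB lost that call in left folds alone (0.72, adjusted p = 0.109) and with only the 2 groups fitted (1.07, 0.0823). By edgeR it did not pass in Col1 against control (0.73, SE 0.27, adjusted p = 0.0547) or VFLP (au) against control (0.70, SE 0.27, adjusted p = 0.0701). DESeq2 called Col1 (0.70, adjusted p = 0.0426). Both passed by edgeR in right folds alone (Col1 1.54, adjusted p = 0.0074, and VFLP (au) 1.36, adjusted p = 0.0199) and without control animal 1 (Col1 1.12, adjusted p = 0.00401, and VFLP (au) 1.08, adjusted p = 0.00595). Against injury only, VFLP (man) gave 0.93 (SE 0.27, adjusted p = 0.112) and Col1 0.59 (SE 0.27, adjusted p = 0.351), which did not pass by edgeR, while DESeq2 called VFLP (man) (0.91, adjusted p = 0.0267).

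RARG encodes retinoic acid receptor gamma, the main RAR of the epidermis in mice and humans, and it rose with all 3 materials against control. It had 303, 188 and 260.3 CPM in VFLP (man), 308, 282 and 203 in VFLP (au), 326, 219 and 345 in Col1, 154, 169 and 174 in injury only, and 186, 87.2 and 129 in control. Every injected animal was above every animal without injection, by a narrow margin between the lowest VFLP (man) animal (188 CPM) and the highest control (186 CPM). The log2 fold change against control was 0.89 in VFLP (man) (SE 0.27, adjusted p = 0.0229), 0.98 in VFLP (au) (SE 0.27, adjusted p = 0.0201) and 1.15 in Col1 (SE 0.27, adjusted p = 0.0078), and the 3 comparisons share the same control animals.

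The RARG call in Col1 held with each animal left out. In left folds alone all 3 RARG calls against control were lost. The values were 0.57 in Col1 (adjusted p = 0.272), 0.49 in VFLP (man) (0.278) and 0.74 in VFLP (au) (0.145). With only the 2 groups fitted, the VFLP (man) (0.88, 0.0913) and VFLP (au) (0.98, 0.0781) calls were lost. The VFLP (man) call was lost without control animal 2 (log2 fold change 0.64, adjusted p = 0.0981), control animal 3 (0.85, 0.065), VFLP (man) animal 1 (0.73, 0.0828) or VFLP (man) animal 3 (0.86, 0.0575). The VFLP (au) call was lost without control animal 2 (0.72, 0.0935), control animal 3 (0.94, 0.062), VFLP (au) animal 1 (0.84, 0.0697) or VFLP (au) animal 2 (0.94, 0.06). Against injury only, RARG gave 0.85 in Col1 (SE 0.27, adjusted p = 0.277), 0.69 in VFLP (au) (SE 0.27, adjusted p = 0.362) and 0.60 in VFLP (man) (SE 0.27, adjusted p = 0.287), none past the threshold. The summed level of squamous epithelium markers overlapped between VFLP (man) or VFLP (au) and control and lay above control in Col1: it was 18497 to 33671 CPM in VFLP (man), 20287 to 30337 in VFLP (au), 24576 to 32221 in Col1, 17242 to 19864 in injury only and 11348 to 21983 in control. By the mean log2 CPM of these markers, Col1 (8.54 to 8.64) lay within the range of control (7.20 to 8.91). Over the 12 injured animals RARG and this mean log2 level had a Pearson r of 0.735 (permutation p = 0.00891, adjusted p = 0.0922 over 72 relations) and a Spearman rho of 0.713 (permutation p = 0.0115). The r was 0.672 without the 2 animals of most extreme marker level and 0.624 within the 9 animals of batch D (exact permutation p = 0.0755). RARG also had an r of -0.751 with stellate cell markers (permutation p = 0.0048), -0.661 with secretory markers (0.013) and -0.604 with ciliated markers (0.0321). None of its relations with the 9 marker lists passed after adjustment. Permutations exchanged animals across groups, so these p values also take in differences between groups. The part of epithelial content in the RARG difference was not tested.

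RXRG encodes retinoid X receptor gamma, which in adult mice is found mainly in skeletal muscle, heart and parts of the brain. Its row was taken by symbol, and the RefSeq table of rabbit genes lists that symbol as a long noncoding RNA, so whether the counted gene model codes for the receptor was not established here. It fell in all 3 materials and in injury only against control. It was read at 0.362, 0.854 and 0.192 CPM in VFLP (man), 5.66, 2.64 and 13.03 in VFLP (au), 5.33, 6.35 and 0.637 in Col1, 5.85, 11.4 and 13.2 in injury only, and 28.9, 119 and 73.0 in control. No animal of an injured group reached the lowest control, and 2 of the 3 VFLP (man) animals were below all animals of the other groups. The VFLP (man) levels rest on 21, 56 and 12 reads, so their counting error is large, while control levels rest on 1389 to 2678 reads an animal.

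The log2 fold change of RXRG against control was -7.31 in VFLP (man) (SE 1.06, adjusted p = 0.000289), -3.39 in VFLP (au) (SE 0.87, adjusted p = 0.014), -4.19 in Col1 (SE 0.91, adjusted p = 0.00456) and -2.69 in injury only (SE 0.82, adjusted p = 0.0359). The calls in VFLP (man) and Col1 held with each animal left out. The VFLP (au) call was lost without control animal 2 (-2.87, adjusted p = 0.0574), VFLP (au) animal 1 (-3.26, 0.0526) or VFLP (au) animal 2 (-2.99, 0.0539). The injury only call was lost without control animal 2 (-2.18, 0.134), control animal 3 (-2.70, 0.0644), or injury only animal 1 (-2.59, 0.112), 2 (-2.68, 0.0907) or 3 (-2.80, 0.0805). In left folds alone the RXRG calls in Col1 (-2.96, adjusted p = 0.0774) and injury only (-1.94, 0.192) were lost. In right folds alone those in VFLP (au) (-3.03, 0.0669) and injury only (-3.47, 0.0857) were lost.

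RXRG also fell in VFLP (man) against injury only, by a log2 fold change of -4.43 (SE 0.94, adjusted p = 0.0491). That call was lost in 10 of 17 alternative fits. Among them were leaving out injury only animal 2 (-4.34, adjusted p = 0.151) or 3 (-4.19, 0.108), and leaving out VFLP (man) animal 1 (-4.28, 0.183) or 3 (-4.06, 0.185). Against the other materials, within batch D, VFLP (man) gave -3.92 relative to VFLP (au) (SE 0.89, adjusted p = 0.102) and -3.12 relative to Col1 (SE 0.87, adjusted p = 0.261), which did not pass by edgeR. DESeq2 called both, at -3.91 (adjusted p = 0.000112) and -3.12 (adjusted p = 0.00819).

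RXRG followed the skeletal muscle markers from animal to animal. Over the 12 injured animals its log2 CPM and the mean log2 level of the 13 markers had a Pearson r of 0.928 and a Spearman rho of 0.958 (both permutation p = 1e-05, the smallest that 100000 resamples can give, and adjusted p = 0.00072 over 72 relations). The r was 0.926 without the 2 animals of most extreme muscle level, and 0.904 within the 9 injected animals of batch D (exact permutation p = 0.000347, adjusted p = 0.0125). It was the single relation of the 72, between 8 genes and 9 marker lists, to pass over the 12 animals. The right fold had more RXRG than the left in 10 of 15 animals, and in 15 of 15 the fold with more RXRG was also the fold with more muscle marker RNA.

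Per 1000 CPM of muscle markers, a measure chosen after the values were seen, RXRG stood at 0.340 ± 0.293 CPM in VFLP (man), 0.743 ± 0.426 in VFLP (au), 0.685 ± 0.359 in Col1, 0.717 ± 0.0129 in injury only and 1.05 ± 0.323 in control. VFLP (man) animals lay at 0.671, 0.237 and 0.113, and control animals at 0.673, 1.21 and 1.25, so the nearest animals of these groups had almost the same ratio. With the muscle level as a covariate the RXRG log2 fold change was -0.96 in VFLP (man) (adjusted p = 0.838), -0.03 in VFLP (au) (0.996), -0.04 in Col1 (0.995) and -0.25 in injury only (0.884) against control, and -0.68 in VFLP (man) against injury only (0.941). The muscle level did not overlap between control and any injured group, so muscle content and injury cannot be told apart against control.

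**Figure D3:**
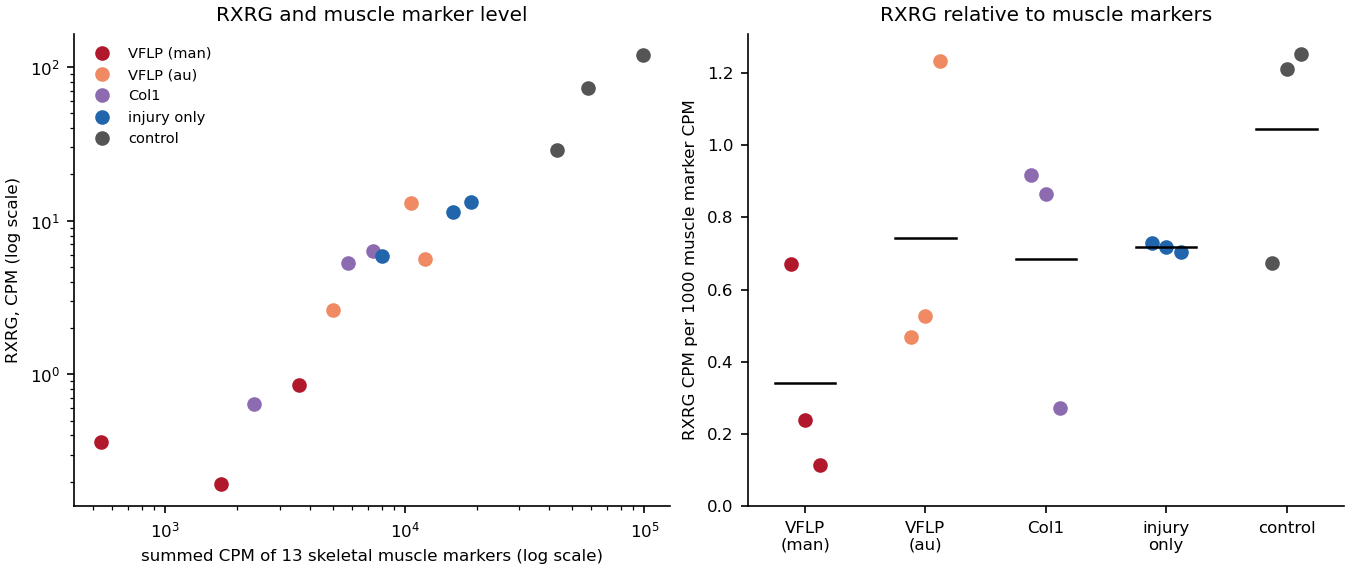
Left panel, RXRG CPM against the summed CPM of 13 skeletal muscle markers, both on log axes, for 15 animals coloured by group. Right panel, RXRG CPM per 1000 CPM of muscle markers in each animal, with lines at the group means; the means run between 0.340 in VFLP (man) and 1.05 in control.

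The retinoid genes past the threshold were counted beside all genes tested. Injury only against control called 1 of 8, lower, where 22.1% of all genes were called (8.33% higher and 13.7% lower). VFLP (man) against control called 3 higher and 1 lower of 8, where 37.3% of all genes were called (16.7% higher and 20.5% lower), and the median log2 fold change was 0.49 for the 8 genes and 0.13 for all genes. VFLP (au) against control called 1 higher and 1 lower, where 27.5% of all genes were called (10.8% higher and 16.7% lower), with medians of 0.60 and 0.11. Col1 against control called 2 higher and 1 lower, where 32.1% of all genes were called (13.5% higher and 18.6% lower), with medians of 0.50 and 0.12. Each of these counts rests on 1 to 4 genes. A batch term, which rests on 1 library, ended every call of the 8 genes for materials against control or injury only. Of all 17815 genes in that fit it left 29 in VFLP (man) against control and 0 in the other 5 of these comparisons. With the muscle level as a covariate 0 of 8 passed in each comparison. Of all genes, that covariate left 649 in injury only against control, 1 in VFLP (man) against control and 0 in VFLP (au) and Col1 against control and in each material against injury only. With it, against control RDH10 and RARG turned to log2 fold changes below 0 in VFLP (man) (-0.996 for RDH10 and -0.92 for RARG) and Col1 (-0.26 and -0.0705), while ALDH1A1 in VFLP (man) stood at 1.31 (adjusted p = 0.458).

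Groups whose animals did not overlap were also counted. Against control this held for 6 of 8 genes in VFLP (man), 4 in VFLP (au), 3 in Col1 and 2 in injury only, where it held for 49% of all genes in VFLP (man), 42.6% in VFLP (au), 45.8% in Col1 and 42.3% in injury only. Against injury only it held for 6 of 8 in VFLP (man) (24.9% of all genes), 5 in VFLP (au) (21.3%) and 2 in Col1 (22.7%). RDH10, RARB and RARG were higher and ALDH1A2 lower in all animals of both hydrogel groups than in injury only, and these comparisons share the same 3 injury only animals. Between materials it held for 1 of 8 in VFLP (man) against Col1 (15% of all genes), 0 in VFLP (au) against Col1 (9.19%) and 3 in VFLP (man) against VFLP (au) (14.4%).

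Against injury only, VFLP (man) called 1 of 8, lower, where 1.06% of all genes were called (0.0732% higher and 0.99% lower). VFLP (au) and Col1 called 0 of 8, and 0% of all genes by edgeR. Without adjustment 2 of the 8 genes had a p under 0.05 in VFLP (au) and 3 in Col1 (all genes, 12.9% and 14.2%), and DESeq2 called 0 of 8 in both. Between materials edgeR called 0 of 8 in each of the 3 comparisons, where 0% of all genes were called in VFLP (man) against Col1 and in VFLP (au) against Col1, and 0.0505% in VFLP (man) against VFLP (au). Unadjusted p values under 0.05 numbered 4 of 8 for VFLP (man) against Col1 (all genes, 10.3%), 0 for VFLP (au) against Col1 (4.65%) and 2 for VFLP (man) against VFLP (au) (8.36%). DESeq2 called 1, 0 and 2 of the 8 genes in these comparisons.

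**Figure D4:**
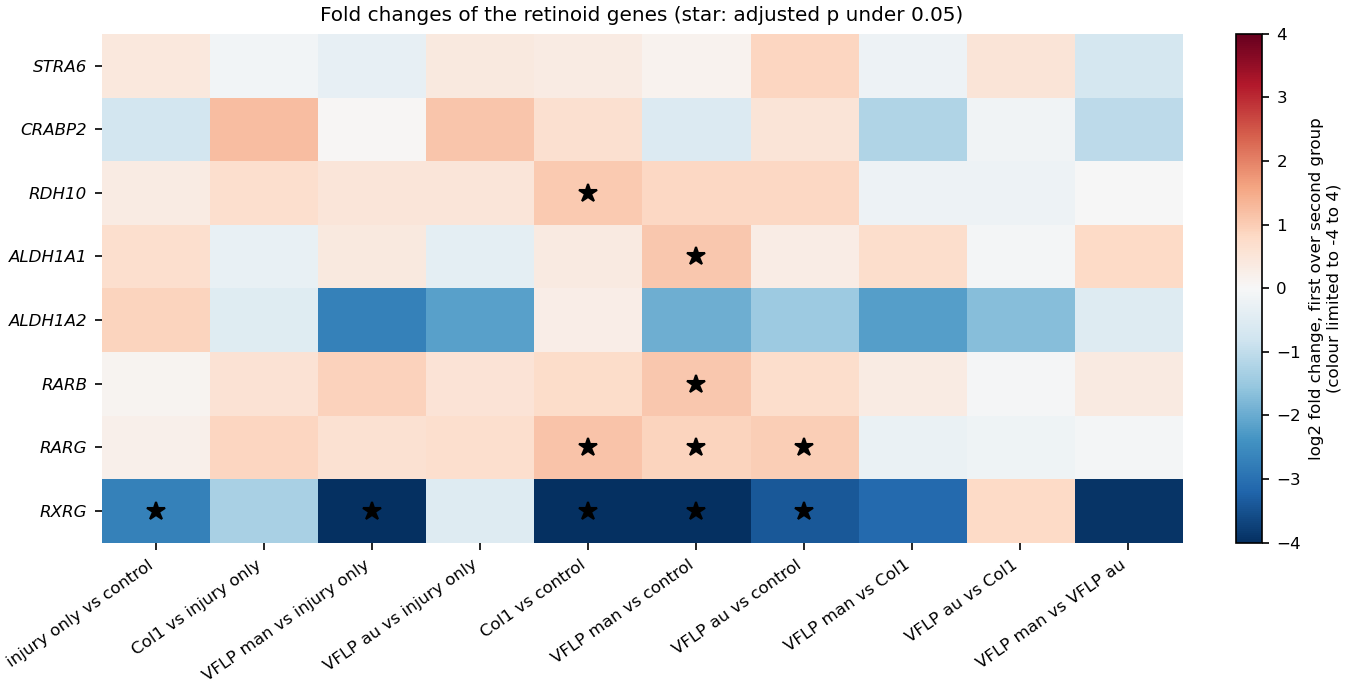
Log2 fold changes of the 8 retinoid genes in the 10 comparisons of groups, first group over second, as colour limited to -4 to 4. Stars mark an adjusted p under 0.05 by edgeR; RXRG has 5 of the 11 stars and is below 0 in each of those.

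Other genes of the pathway were followed from a list of 46, of which 36 were found and 34 tested. Against control, 13 changed in VFLP (man) (8 higher, 5 lower), 7 in VFLP (au) (4 higher, 3 lower), 8 in Col1 (5 higher, 3 lower) and 3 in injury only (2 higher, 1 lower), where 37.3% of all genes were called in VFLP (man), 27.5% in VFLP (au), 32.1% in Col1 and 22.1% in injury only. None was called against injury only or between materials by edgeR, and unadjusted p values under 0.05 numbered 5 of 34 for VFLP (man), 7 for VFLP (au) and 6 for Col1 against injury only (all genes, 17.2% in VFLP (man), 12.9% in VFLP (au) and 14.2% in Col1).

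Among storage and carotenoid genes, LRAT, which esterifies retinol for storage and marks stellate cells, averaged 201 ± 94.0 CPM in VFLP (man), 167 ± 70.5 in VFLP (au), 135 ± 34.8 in Col1, 113 ± 13.6 in injury only and 81.7 ± 18.2 in control. It rose in VFLP (man) against control (1.29, SE 0.38, adjusted p = 0.0202), with 1 VFLP (man) animal inside the control range, and lost the call without control animal 2 (1.18, 0.081) or 3 (1.198, 0.065) or VFLP (man) animal 2 (1.22, 0.0514) or 3 (0.95, 0.0882). LRAT also lost it in left folds alone (0.92, adjusted p = 0.129) and with only the 2 groups fitted (1.29, 0.063). BCO2, which cleaves carotenoids, averaged 35.7 ± 20.7 CPM in injury only and 8.09 ± 2.38 in control, where it rose by 2.26 (SE 0.67, adjusted p = 0.0311). That call was lost without injury only animal 1 (1.56, 0.137) and without control animal 1 (2.03, 0.0816), 2 (2.28, 0.0993) or 3 (2.44, 0.0612). It was also lost in left folds alone (2.59, adjusted p = 0.142) and in right folds alone (1.30, 0.291).

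Among enzymes, DHRS3, which returns retinaldehyde to retinol and is induced by retinoic acid in several cell types, rose in every injured group against control. It averaged 46.0 ± 11.3 CPM in VFLP (man), 38.9 ± 5.79 in VFLP (au), 50.2 ± 2.00 in Col1, 37.7 ± 10.9 in injury only and 22.4 ± 0.970 in control. The log2 fold changes were 1.02 in VFLP (man) (SE 0.21, adjusted p = 0.00288), 0.79 in VFLP (au) (SE 0.21, adjusted p = 0.0167), 1.16 in Col1 (SE 0.21, adjusted p = 0.00198) and 0.71 in injury only (SE 0.21, adjusted p = 0.03), and all 12 injured animals were above all 3 control animals. The calls in VFLP (man) and Col1 held with each animal left out. The VFLP (au) call was lost without control animal 2 (0.73, 0.0724) or VFLP (au) animal 1 (0.73, 0.0534) or 2 (0.72, 0.0589), and the injury only call without control animal 1 (0.71, 0.0568), 2 (0.65, 0.11) or 3 (0.73, 0.0644) or injury only animal 1 (0.51, 0.127) or 3 (0.70, 0.0656). Left folds alone lost the DHRS3 calls in Col1 (0.98, adjusted p = 0.0582), VFLP (au) (0.65, 0.0951) and injury only (0.58, 0.173). With only the 2 groups fitted, the injury only call was lost (0.78, 0.0659). RDH14, a retinol dehydrogenase, fell in all 4 injured groups against control, with 23.3 ± 2.04 CPM in VFLP (man), 22.8 ± 0.994 in VFLP (au), 23.3 ± 1.54 in Col1, 22.5 ± 1.64 in injury only and 36.2 ± 8.52 in control. Its log2 fold changes lay between -0.67 and -0.65, with adjusted p between 0.00717 and 0.0127, and its calls held with each animal left out. All 4 calls were lost in left folds alone (adjusted p = 0.157 to 0.477) and with only the 2 groups (0.0592 to 0.0917). They were also lost with the muscle covariate (0.166 to 0.865). The calls in the 3 injected groups were lost with a batch term (0.569 to 0.698).

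Among receptors and cofactors, RARA, the retinoic acid receptor alpha, fell in the 3 injected groups against control, in contrast to RARG. It averaged 11.6 ± 0.892 CPM in VFLP (man), 12.98 ± 2.11 in VFLP (au), 13.2 ± 0.904 in Col1, 14.6 ± 4.15 in injury only and 21.9 ± 6.09 in control. The log2 fold changes were -0.93 in VFLP (man) (SE 0.24, adjusted p = 0.00946), -0.76 in VFLP (au) (SE 0.24, adjusted p = 0.0341) and -0.74 in Col1 (SE 0.24, adjusted p = 0.0333). The VFLP (man) call held with each animal left out. In left folds alone all 3 RARA calls were lost (adjusted p = 0.0943 in VFLP (man), 0.125 in VFLP (au) and 0.391 in Col1). With only the 2 groups fitted, the VFLP (au) and Col1 calls were lost (0.0895 and 0.0668). The VFLP (au) call was lost with control animal 2 (-0.57, 0.136) or 3 (-0.77, 0.0684) or any of VFLP (au) animals 1, 2 and 3 (-0.85, 0.0534; -0.62, 0.12; -0.83, 0.0564) left out. The Col1 call was lost with control animal 2 (-0.53, 0.138) or 3 (-0.74, 0.0701) or any of Col1 animals 1, 2 and 3 (-0.67, 0.0997; -0.77, 0.0628; -0.77, 0.0689) left out.

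NCOA3, a coactivator of nuclear receptors, averaged 83.6 ± 9.90 CPM in VFLP (man), 80.6 ± 11.5 in VFLP (au), 86.0 ± 10.4 in Col1, 68.6 ± 7.45 in injury only and 55.5 ± 11.9 in control. NCOA3 rose in each injected group against control, by a log2 fold change of 0.58 in VFLP (man) (SE 0.17, adjusted p = 0.0181), 0.54 in VFLP (au) (SE 0.17, adjusted p = 0.0333) and 0.63 in Col1 (SE 0.17, adjusted p = 0.014). Each of these 3 calls was lost without control animal 2, where the log2 fold change was 0.42 in VFLP (man) (adjusted p = 0.0856), 0.36 in VFLP (au) (0.168) and 0.46 in Col1 (0.0679). They were also lost without VFLP (man) animal 1 (0.51, adjusted p = 0.0607) or 3 (0.54, 0.055), VFLP (au) animal 1 (0.43, 0.122) or 2 (0.53, 0.0838), Col1 animal 1 (0.57, 0.0508) or, for VFLP (au), control animal 3 (0.53, 0.0804). Left folds alone lost all 3 calls (adjusted p = 0.257 in VFLP (man), 0.263 in VFLP (au) and 0.635 in Col1). So did fits of only the 2 groups (0.0773, 0.112 and 0.0617 in the same order). With the muscle covariate, NCOA3 (-0.18) and DHRS3 (-0.39) turned below 0 in VFLP (man) against control. That covariate ended every call given here of LRAT, DHRS3, RDH14, RARA and NCOA3. A batch term ended each of their calls in the injected groups. Over all genes, the batch term left 29 calls in VFLP (man) against control and 0 in VFLP (au) and Col1. The covariate left 1 call in VFLP (man), 0 in VFLP (au) and Col1, and 649 in injury only. RXRB, an RXR present in most tissues, stayed between 35.1 and 45.8 CPM in all 15 animals and passed in no comparison.

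**Figure D5:**
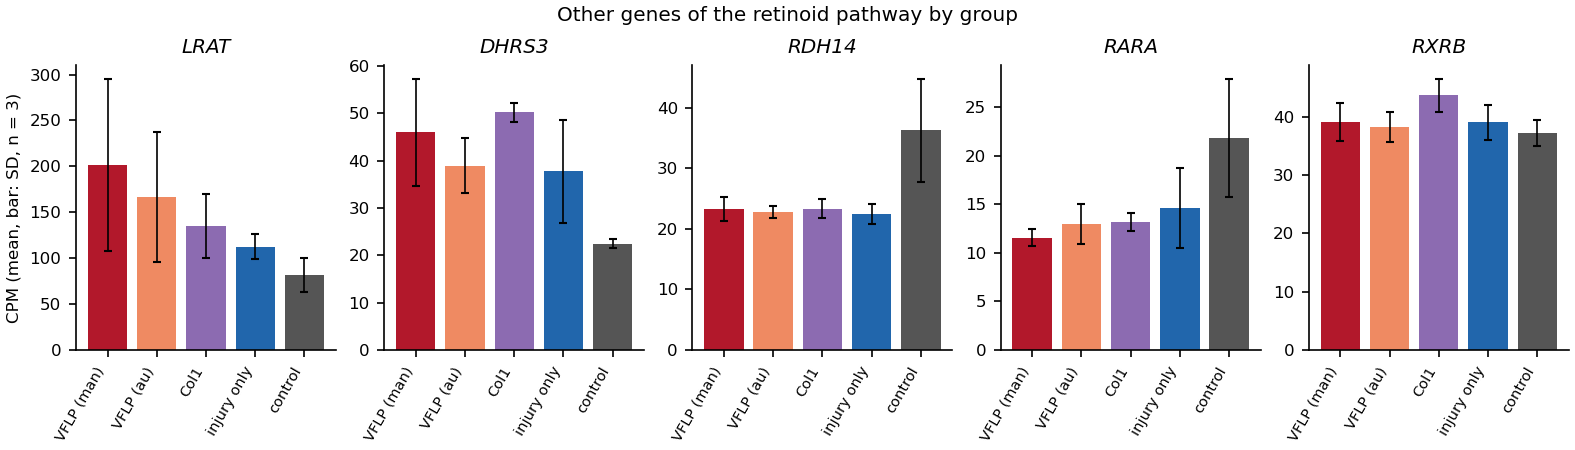
Mean CPM of 5 other retinoid genes by group, with bars of SD over 3 animals. DHRS3 is lowest in control (22.4 CPM), while RDH14 and RARA are highest there (36.2 and 21.9 CPM).

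Genes known from vitamin A storing stellate cells, all 9 of which were found, differed in their order over the groups. CYGB averaged 0.951 ± 0.124 CPM in VFLP (man), 1.04 ± 0.363 in VFLP (au), 1.11 ± 0.452 in Col1, 2.05 ± 0.891 in injury only and 3.26 ± 1.32 in control, opposite in order to LRAT. RELN spanned 1.86 to 6.68 CPM in VFLP (man), 0.277 to 2.60 in VFLP (au), 0.517 to 2.18 in Col1, 3.57 to 11.4 in injury only and 2.46 to 3.97 in control. The summed level of the list, 473 to 823 CPM in VFLP (man), 834 to 1257 in VFLP (au), 711 to 882 in Col1, 837 to 1427 in injury only and 2018 to 4195 in control, rested mainly on DES, which muscle also expresses (166 ± 114 CPM in VFLP (man) and 2185 ± 936 in control), and on VIM.

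The right and left folds of 14 animals were compared with the animal as a block. None of the 8 genes passed, and 0% of 15301 genes did by edgeR, with 8.6% at an unadjusted p under 0.05. RARB was lower in the right fold by 0.47 on the log2 scale (SE 0.16, unadjusted p = 0.0121, adjusted p = 0.56). In the control group the right fold was lower than the left in 3 of 3 animals for STRA6, CRABP2, RDH10, ALDH1A1, RARB and RARG and higher in 3 of 3 for RXRG. Muscle marker levels in these animals were 78802, 125447 and 82698 CPM in the right folds, against 13047, 78745 and 36925 in the left folds, all in batch C.

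The genes whose log2 CPM over the 15 animals was most like each member were sought among 12285 genes with a symbol and a mean of at least 1 CPM; the points share the 5 groups, and the coefficients are descriptions. RXRG was most like PPP1R3A (Pearson r = 0.987), C15H4orf54 (0.983) and SMYD1 (0.982). RARG was most like SMURF1 (0.981), TBC1D10A (0.976) and GRHL1 (0.975), and RARB most like VAV3 (0.945), LIMS1 (0.928) and ARHGAP22 (0.914). ALDH1A1 was most like ROBO1 (0.929), PGER1 (0.887) and SOD1 (0.886), and ALDH1A2 most like ATP8A2 (0.956), LGMN (0.932) and SLITRK5 (0.926). RDH10 was most like MPZL3 (0.971), FLRT3 (0.962) and IKBKB (0.954), CRABP2 most like SBSN (0.898), RAB32 (0.871) and SERINC2 (0.865), and STRA6 most like RANBP1 (0.954), RMI2 (0.937) and SNRPA1 (0.933).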

How the data were processed

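RNA of both vocal folds of 15 rabbits was sequenced. The authors deposited raw read counts by gene and strand, made with STAR 2.7.10b per the submitters' processing notes. Their genome build and gene models: not given in the sources used here. Counts of the strand that fits the kit were used, and the 4 entries that name no gene (median 30.4% of counted reads) were left out. Intervals of counting error were not computed.

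The members, gene lists and comparisons were chosen with earlier results of these data known. Folds of an animal were summed. Tests used R 4.3.3 and edgeR 4.0.16 (quasi-likelihood F test, TMM, filterByExpr at a minimum count of 10), with Benjamini-Hochberg adjustment over all genes tested and 0.05 as threshold. All groups shared 1 estimate of the spread. Injury only against control and comparisons between materials used 16 units with batch as a covariate, injury only animal 1 having a fold in each batch and entering as 2 units. Comparisons of a material with injury only or control, and the test over 5 groups, used 15 animals without a batch term, since batch and group are then nearly the same; for materials against control they cannot be told apart. SE is the log2 fold change over the square root of F, an approximation. Log2 CPM used a prior count of 2. Fold levels are CPM scaled per library.

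The text names the members, preset other genes (LRAT, DHRS3, RARA and RXRB; CYP26B1 was not analysed here) and up to 4 per comparison by smallest p, of which some are not reported here, and for each member the 3 most similar genes. Stellate markers CYGB, RELN, DES and VIM were chosen after their values were seen. Among the alternatives were DESeq2 1.42.0, edgeR with DESeq2 size factors, no low-count filter, a replicate block, unstranded counts, batch handled the other way, only the 2 groups, left or right folds alone, a muscle covariate, and each animal left out; 2 single libraries left out were added after seeing the data. The fits were tested on simulated counts.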

Additional observations from a re-analysis of the deposited data

Results flagged for a closer look

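With 6 libraries a group, 3 of 40 gene and group sets held a library far above the others, and chance flags about 1 in 20 sets. The right fold of injury only animal 3 had 3202 CPM of ALDH1A1, where the next library of the group had 2377. The right fold of VFLP (man) animal 2 had 1.49 CPM of RXRG (next 0.460), and its muscle marker level was 6470 CPM, the highest of its group. The right fold of VFLP (au) animal 3 had 25.3 CPM of RXRG (next 8.03), with a muscle marker level of 20051 CPM, the highest of its group.

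In 7 cases every animal of one group moved one way between right and left folds and every animal of another group the opposite way; these differences were not tested. The mean right minus left difference of CRABP2 was 0.40 on the log2 scale in Col1, against -0.70 in VFLP (au) and -1.89 in control. That of ALDH1A1 was 0.36 in Col1 and -0.38 in control, and that of RARB 0.20 in injury only and -1.53 in control. RXRG gave 1.66 in VFLP (man), 2.18 in VFLP (au) and 1.38 in control, each against -2.12 in Col1, and the muscle marker level was higher in the right fold of 3 of 3 animals in the first 3 of these groups and of 0 of 3 in Col1.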

How the results depend on the processing

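Only log2 fold changes of the 8 retinoid genes with an unadjusted p under 0.05 in the main fit were followed under each alternative. STRA6 had none. Of the followed values, 439 kept direction and side of the threshold, 60 kept direction but no longer passed, 19 newly passed and 7 reversed. For the calls of the other retinoid genes named these numbers were 184, 89, 0 and 2. All reversals among the followed values came with the muscle covariate, under which 0 members passed in every comparison. They were RARG -0.56 in VFLP (man) against injury only; against control, RDH10 -0.26 and RARG -0.0705 in Col1, RDH10 -0.996, ALDH1A2 1.30, RARG -0.92, DHRS3 -0.39 and NCOA3 -0.18 in VFLP (man), and RDH10 -0.14 in VFLP (au). Muscle level and group are confounded, and the cause was not tested.

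The count of members past the threshold was 1 in injury only against control, 2 with DESeq2 and 0 with the replicate block or left folds alone (0 to 1 with animals left out). In VFLP (man) against injury only it was 1, 3 with DESeq2, and 0 with DESeq2 size factors, the replicate block, a batch term, only the 2 groups or right folds alone (0 to 1 with animals left out). Against control, a batch term, which rests on 1 library, gave 0 for each material. Col1 against control (3) gave 0 with left folds alone and 5 with right folds alone (2 to 4 with animals left out); VFLP (man) (4) gave 2 with left folds alone or only the 2 groups (3 to 5); VFLP (au) (2) gave 1 with either (0 to 4). VFLP (man) against Col1 (0) gave 1 with DESeq2 or left folds alone, VFLP (man) against VFLP (au) (0) gave 2 with DESeq2, and the test over 5 groups (4) gave 1 with a batch term. Relations with marker lists numbered 1, and 3 in the 9 injected animals; the other 2 were STRA6 with ciliated (r = -0.947) and secretory markers (r = -0.888). Other counts of members stayed within 1.5 times of those reported. Leaving out the right fold of control animal 2, of lowest depth, or the batch D library of injury only, both chosen after seeing the data, changed no count of members. Replicate numbers did not pair the animals: deviations of same-numbered animals correlated between -0.501 and 0.362, and 4 of 15 animals correlated best with their own number. With the replicate number as a block, RXRG gave -2.56 in injury only against control (adjusted p = 0.0619) and -4.49 in VFLP (man) against injury only (adjusted p = 0.0597) and BCO2 2.36 in injury only against control (adjusted p = 0.0503), and no other call of a named gene changed.

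Over all genes, calls numbered 3933 in injury only against control (0 with left folds alone to 5488 with DESeq2) and 189 in VFLP (man) against injury only (0 with a batch term to 1249 with DESeq2). Against control they numbered 5702 in Col1 (0 with a batch term to 7762 with right folds alone), 6623 in VFLP (man) (1 with the muscle covariate to 7658 with DESeq2) and 4884 in VFLP (au) (0 with a batch term to 5959 with DESeq2). DESeq2 called 380 in Col1 and 201 in VFLP (au) against injury only, 389 in VFLP (man) and 35 in VFLP (au) against Col1, where edgeR called 0 in each, and 387 in VFLP (man) against VFLP (au) (edgeR 9). The test over 5 groups called 5046, and 1535 with a batch term. Separate animals gave the replicates, and depth limits RXRG in VFLP (man), where 1 animal had 12 reads.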
